A study of Mus musculus with 12 samples.

Results

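Schwann cells, the glia of peripheral nerves, and melanoblasts, the precursors of pigment cells, are described here through 28 genes that mark them, in limb mesenchyme of E14.5 mouse embryos with and without a Creb5 transgene. The genes were listed by symbol and matched to the Ensembl identifiers of a deposited table of 54532 genes, where all 28 were found. They comprise 14 glial genes, 9 pigment genes and 5 genes that glia, melanoblasts and their crest progenitors share.

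Schwann cells and melanoblasts both descend from the neural crest, a migratory population that leaves the dorsal neural tube and follows nerves and dermis into the limb. *Sox10* is the transcription factor on which both lineages depend, *Mitf* directs the pigment branch, and *Egr2* directs myelination in Schwann cells. The mesenchyme sampled in these libraries comes from lateral plate mesoderm, so in such cells these genes serve mainly as markers of another cell type, although several of them, *S100b* in chondrocytes among them, are also expressed in mesodermal cells.

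Both groups came from embryos of Prrx1-Cre fathers, whose Cre recombinase is driven by a Prrx1 regulatory sequence active in limb mesenchyme, and mothers carrying the Rosa26 alleles LSL-bovine-Creb5-ires-GFP and LSL-tdTomato. Cells of the iCreb5 group expressed an HA-tagged bovine Creb5, a transcription factor of the CREB/ATF family, together with GFP. Cells of the control group expressed the red fluorescent protein tdTomato, so Cre and a recombined Rosa26 allele were common to both groups. Cells were sorted by fluorescence, about 250 to 500 K per sample (K for 1000), and polyA RNA was sequenced. There were 6 libraries per group: 3 of each from litter 3 and 1 of each from litters 4, 5 and 6. The labels give these 4 litters, each with its own batch label, whereas the design text speaks of 6. Litter and batch cannot be told apart. The labels name no strain and do not say whether a library is 1 embryo or a pool. Each p-value therefore rests on the variation among these libraries, which may be technical in part.

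Values are normalised read counts, from which whole reads could be recovered. The shallowest library held 9.02 M of them and the deepest 53.3 M (M for 1000000), and 3 reads corresponded to a value between 1.48 and 8.38, which covers counting error only. The value assigned to mouse *Creb5* was higher in iCreb5 (2799 ± 214 against 1803 ± 299, SD, n = 6, limma adjusted p = 0.00219) with no overlap, a call lost in litters 4 to 6 alone (limma adjusted p = 0.0501). Whether this value includes reads of the bovine transgene is not known, because their treatment is not given. *Prrx1* did not pass the test (4158 ± 575 against 4986 ± 943, limma adjusted p = 0.352). Markers of some other cells moved with the groups. Over all genes tested, 3.87% rose and 2.85% fell (limma adjusted p under 0.05). All 10 cartilage markers fell, with sums of 73999 to 105035 in iCreb5 and 146477 to 338913 in tdTomato, led by *Matn1* (log2 change -2.03). Of 10 leukocyte markers, 9 rose (sums of 1685 to 7151 and 463 to 728), led by *Ptprc* (4.49), which was at 0 in 3 tdTomato libraries. Of 8 endothelial markers, 5 rose, or 3 without the tdTomato libraries 3a and 5b (1434 to 4041 and 1139 to 1629). Of 8 tested neuronal markers 3 rose, led by *Isl1* (2.69), *Stmn2* fell (-1.65) and 4 did not pass, with sums of 7060 to 11306 and 1560 to 2313. Most of the neuronal sum was *Nefl* (mean 6086 in iCreb5 and 963 in tdTomato) and *Nefm* (2076 and 325), both named outside the rule. None of the tested skeletal muscle (7), epidermal (7), red cell (4) and limb mesenchyme (8) markers passed in limma, with 0 at an unadjusted p under 0.05 and 0 in edgeR and DESeq2. With litter as a replicate block 1 skeletal muscle marker, *Acta1*, rose (log2 change 0.98, limma adjusted p = 0.036). The part of these shifts in the results below was not tested unless a value is given.

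Promoters from the RefSeq table used here (GRCm38.p6) are shown for *Ednrb*, *S100b*, *Ngfr* and *Cmtm5*, of the 5 members that passed the test, while *Sox10* is named only. They are given as the 250 bases before the RefSeq start on the gene's strand, because Creb5 belongs to a family that binds CRE and AP-1 type sites. The motifs searched on both strands were TGACG, the CRE half-site, and TGANTCA, the AP-1 site, and a match is in capitals. *Ednrb* (chr14:103843702-103843951, minus strand) rose, while *S100b* (chr10:76253586-76253835, plus strand), *Ngfr* (chr11:95587699-95587948, minus strand) and *Cmtm5* (chr14:54936220-54936469, plus strand, 1 of its 2 windows) fell.
Ednrb: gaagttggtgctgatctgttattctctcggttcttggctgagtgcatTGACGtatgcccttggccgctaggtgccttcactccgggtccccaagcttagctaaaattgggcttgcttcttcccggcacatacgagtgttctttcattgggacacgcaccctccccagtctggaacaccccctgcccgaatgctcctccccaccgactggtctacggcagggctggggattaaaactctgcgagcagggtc
S100b: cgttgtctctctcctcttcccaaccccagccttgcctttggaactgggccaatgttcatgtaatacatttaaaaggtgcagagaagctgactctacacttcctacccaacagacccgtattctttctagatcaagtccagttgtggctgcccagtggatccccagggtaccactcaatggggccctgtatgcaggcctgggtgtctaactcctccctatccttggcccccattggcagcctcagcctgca
Ngfr: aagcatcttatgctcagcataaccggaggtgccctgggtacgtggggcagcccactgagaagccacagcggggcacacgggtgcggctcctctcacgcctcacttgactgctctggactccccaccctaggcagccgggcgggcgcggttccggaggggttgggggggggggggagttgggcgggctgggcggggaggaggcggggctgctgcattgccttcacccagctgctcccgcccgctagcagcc
Cmtm5: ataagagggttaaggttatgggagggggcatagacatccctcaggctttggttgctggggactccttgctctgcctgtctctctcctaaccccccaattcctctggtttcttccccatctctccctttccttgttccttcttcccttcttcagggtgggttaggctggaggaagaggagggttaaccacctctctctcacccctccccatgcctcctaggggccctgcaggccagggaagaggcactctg
The *Ednrb* window holds TGACG 203 bases before the start. Neither motif is in the other 3 windows, which says only that these letters are not in these bases. Over all 32851 windows of this length in the table, 17.8% hold TGACG and 6.75% hold TGANTCA. Of the 21 members with a window, 5 hold TGACG and 1 holds TGANTCA.

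For the pigment genes the motif of interest is CATGTG, the core of the M-box that Mitf binds, in capitals in the stretches around it for the 3 melanin enzymes *Tyr* (chr7:87493513-87493563, minus strand), *Tyrp1* (chr4:80834137-80834202, plus strand) and *Dct* (chr14:118052361-118052426, minus strand).
Tyr: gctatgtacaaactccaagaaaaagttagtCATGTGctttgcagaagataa
Tyrp1: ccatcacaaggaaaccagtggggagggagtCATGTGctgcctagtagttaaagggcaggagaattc
Dct: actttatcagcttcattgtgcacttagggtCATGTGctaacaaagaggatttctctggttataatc
The match lies 21 bases before the start in *Tyr*, 46 in *Tyrp1* and 150 in *Dct*, whose window holds another on the opposite strand. CATGTG occurs in 5 of the 21 members with a window, some of which have more than 1. Over all windows of the table the share is 12.3%.

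The crest and glial genes split. *Sox10*, *S100b*, *Ngfr* and *Cmtm5* were lower in iCreb5 by 2.46-fold to 3.57-fold, the endothelin receptor gene *Ednrb* was 1.89-fold higher, and none of the pigment genes passed the test. Of the 28 members, 20 passed the filter (10 or more normalised reads in 6 or more of the 12 libraries) and were tested, 1 rose, 4 fell and 15 did not pass. Over all 16733 genes tested, 3.87% rose and 2.85% fell (limma on log2(value + 1), adjusted p under 0.05, used throughout). The median log2 change was -0.21 for the tested members and 0.00 over all genes tested. At an unadjusted p under 0.05, 4 members were higher and 7 lower, against 9.93% and 8.27% of all genes. On the recovered reads, edgeR called 1 member higher and 4 lower (3.83% and 2.81% of all genes), and DESeq2 called 2 and 5 (5.51% and 4.27%). The groups did not overlap for 3 members, all lower in iCreb5, whereas 1.92% of all genes were apart in that direction and 2.83% in the other. In a bulk library, fewer cells of a type and less RNA per cell cannot be told apart.

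**Figure D1:**
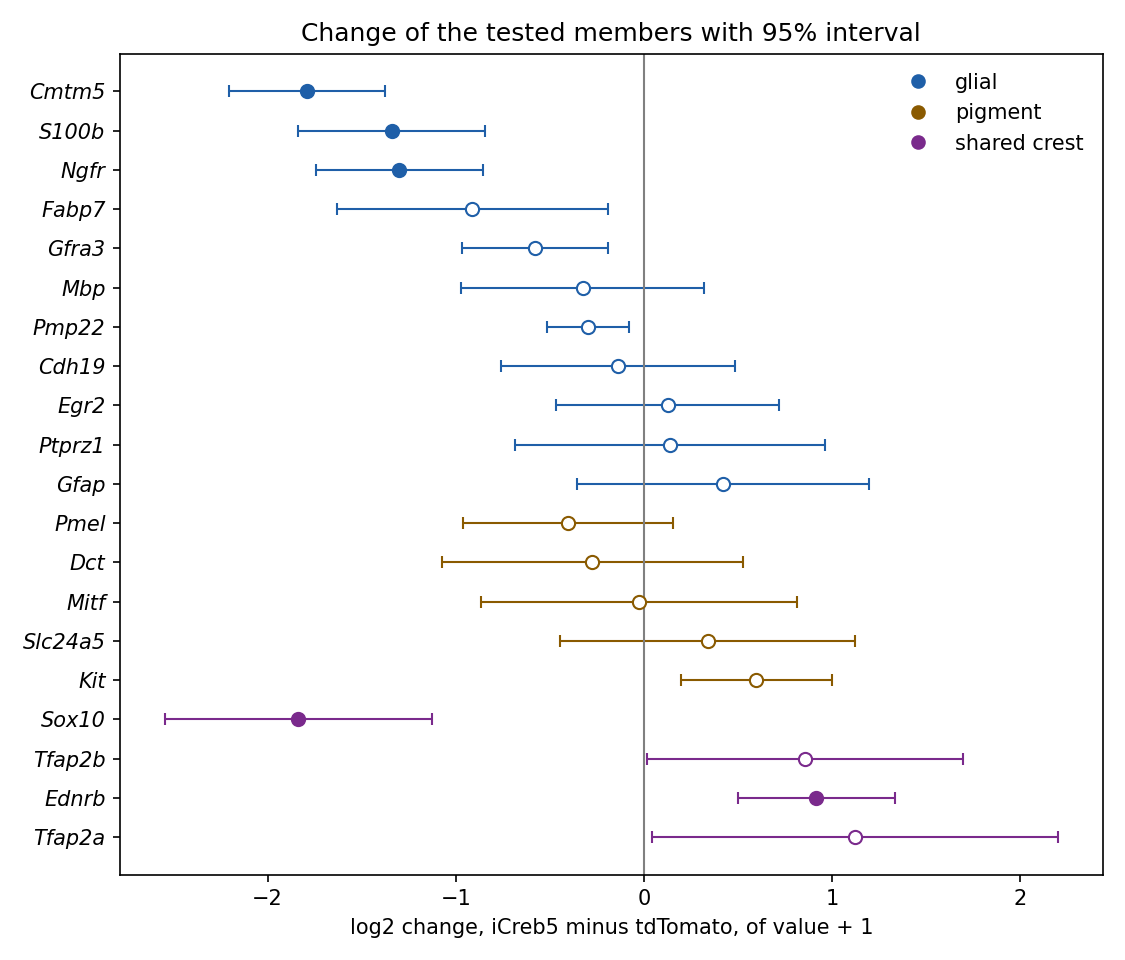
Log2 change (iCreb5 minus tdTomato, of value + 1) of the 20 tested members with the 95% interval, coloured by list, filled where adjusted p was under 0.05. *Cmtm5*, *S100b*, *Ngfr* and *Sox10* lie between -1.84 and -1.30, *Ednrb* lies at 0.92, and all 5 pigment genes are open.

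*Sox10* (chr15:79154908-79165240) read 61.5, 59.7 and 72.3 in the iCreb5 libraries of litter 3 and 15.1, 49.2 and 41.1 in those of litters 4, 5 and 6. The tdTomato libraries read 170.3, 211 and 214 in litter 3 and 191, 128 and 101 in litters 4, 5 and 6. Every tdTomato library was above every iCreb5 library, and the lowest iCreb5 value was that of litter 4. Means were 49.8 ± 20.1 and 169 ± 45.8 (SD, n = 6), a log2 change of -1.84 ± 0.33 (SE, 95% interval -2.55 to -1.13, limma adjusted p = 0.00242), or 3.57-fold higher in tdTomato.

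The call held within litters. *Sox10* fell by 1.60 on the log2 scale in litter 3 alone (limma adjusted p = 0.00804) and changed by -2.07 in litters 4 to 6 with litter as a term (limma adjusted p = 0.048). The latter lies just under the threshold, in 3 libraries against 3.

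*Foxd3*, a transcription factor of early crest cells, was near the limit of detection, with 46 reads in all 12 libraries together and more than 3 reads in 3 of them. Its highest value was 13.2, in the iCreb5 library of litter 6, and 3 libraries were at 0. It was not tested.

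*Ednrb* (chr14:103814625-103844402) encodes the receptor for endothelin 3, through which crest cells are kept proliferating and migrating. Its iCreb5 libraries read 595, 404, 376, 242, 378 and 513 (litters 3, 3, 3, 4, 5 and 6), and its tdTomato libraries read 212, 222, 267, 173, 224 and 191 in the same order. The only overlap was between the iCreb5 library of litter 4 and the highest tdTomato library, from litter 3, and iCreb5 was higher within every litter. Means were 418 ± 122 and 215 ± 32.4 (SD, n = 6), a log2 change of 0.92 ± 0.20 (SE, 95% interval 0.50 to 1.33, limma adjusted p = 0.00814), or 1.89-fold higher in iCreb5.

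The rise of *Ednrb* was of like size in litter 3 alone (log2 change 0.95, limma adjusted p = 0.0502) and in litters 4 to 6 (0.89, limma adjusted p = 0.0783), where fewer libraries were compared and neither passed. It was opposite in direction to *Sox10* in each litter. Endothelial cells also express *Ednrb*, and 5 of 8 endothelial markers rose, among them *Pecam1* (409 against 114, log2 change 1.79, limma adjusted p = 0.00154). The endothelial sums were 1434 to 4041 in iCreb5 and 1139 to 1629 in tdTomato, and the part of endothelial cells in the level of *Ednrb* was not tested.

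*Tfap2a* and *Tfap2b* encode AP-2 transcription factors of the early crest, and epidermis expresses *Tfap2a* too. *Tfap2a* averaged 25.7 ± 14.9 in iCreb5 and 10.3 ± 4.61 in tdTomato (SD, n = 6), with a log2 change of 1.12 (95% interval 0.04 to 2.20, limma adjusted p = 0.25). *Tfap2b* averaged 83.7 ± 18.9 and 53.2 ± 29.1, with a log2 change of 0.86 (0.02 to 1.70, limma adjusted p = 0.264). For both genes the groups overlapped, and neither passed the test. Of the exon bases of *Tfap2a*, 3 antisense genes share 7.8%, 5.4% and 1.5%, and the labels do not say whether counting used strand. Among the 5 shared genes, 4 were tested, 1 rose, 1 fell (3.87% and 2.85% of all genes) and the median log2 change was 0.89.

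**Figure D2:**
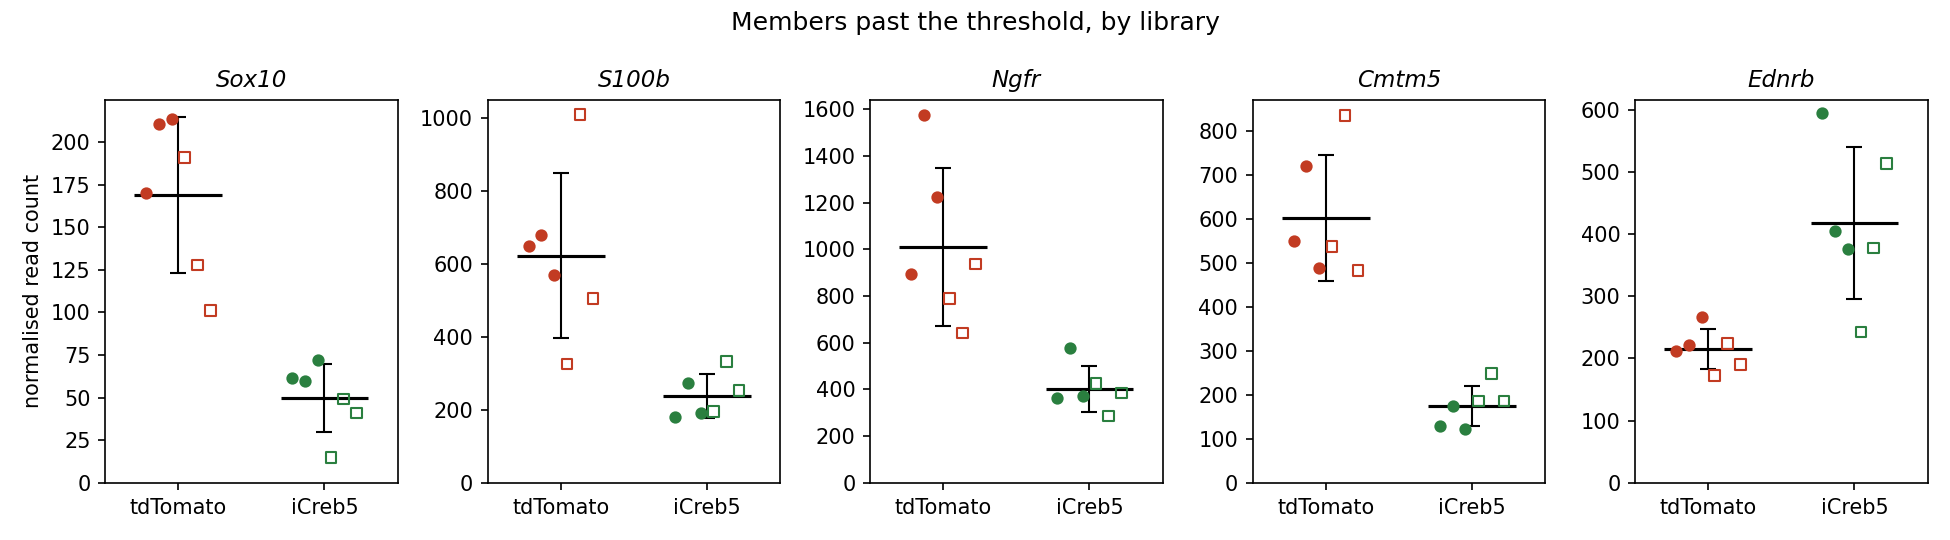
Normalised read counts of the 5 members past the threshold in each library (filled circles litter 3, open squares litters 4 to 6), with the mean and SD of 6 libraries per group. The groups are apart for *Sox10*, *Ngfr* and *Cmtm5*, and iCreb5 lies higher for *Ednrb* alone.

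Of the 14 glial genes, 11 were tested, 3 fell, none rose and 8 did not pass, and the median log2 change was -0.33. Over all genes tested, 2.85% fell and 3.87% rose. In limma 0 were higher and 6 lower at an unadjusted p under 0.05 (9.93% and 8.27% of all genes). EdgeR called 0 higher and 3 lower, and DESeq2 called 0 and 4. The 3 that fell are a calcium-binding protein (*S100b*), a neurotrophin receptor (*Ngfr*) and a membrane protein of the MARVEL family (*Cmtm5*). Each fell in litter 3 alone and in litters 4 to 6.

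*S100b* (chr10:76253853-76261159), a calcium-binding protein used as a Schwann cell marker and also made by chondrocytes, read 180.4, 275 and 191 in the iCreb5 libraries of litter 3 and 195, 332 and 253 in litters 4, 5 and 6. The tdTomato values were 648, 678 and 570.1 in litter 3 and 326, 1009 and 505 in litters 4, 5 and 6. The iCreb5 library of litter 5 was just above the tdTomato library of litter 4, and within each litter iCreb5 was lower. Means were 238 ± 59.6 and 623 ± 227 (SD, n = 6), a log2 change of -1.34 ± 0.23 (SE, limma adjusted p = 0.00173), or 2.53-fold higher in tdTomato. Its log2 change was -1.57 in litter 3 alone and -1.11 in litters 4 to 6.

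*Ngfr* (chr11:95568818-95587735) encodes the low-affinity neurotrophin receptor of immature Schwann cells and crest cells, and is also found in nerve sheath and other mesenchymal cells. It read 362, 578, 374, 424, 286 and 386 in iCreb5 (litters 3, 3, 3, 4, 5 and 6). In tdTomato it read 896, 1577, 1222, 788, 642 and 938. The groups did not overlap, and both groups were lowest in litter 5. Means were 402 ± 97.6 and 1011 ± 337 (SD, n = 6), a log2 change of -1.30 ± 0.21 (SE, limma adjusted p = 0.000873), or 2.46-fold higher in tdTomato. Its log2 change was -1.49 in litter 3 alone and -1.11 in litters 4 to 6.

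*Cmtm5* (chr14:54936261-54939274) had the lowest adjusted p of the members. It read 131, 176, 122, 186, 249 and 187 in iCreb5 and 550.0, 721, 489, 538, 837 and 483 in tdTomato, in the same order of litters. The groups were far apart, with the highest value of each group in litter 5. Means were 175 ± 45.8 and 603 ± 143 (SD, n = 6), a log2 change of -1.79 ± 0.20 (SE, limma adjusted p = 3.31e-05), or 3.45-fold higher in tdTomato. Its log2 change was -2.03 in litter 3 alone and -1.55 in litters 4 to 6.

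Cartilage markers fell beside these genes, with a median log2 change of -1.58 over 10 of 10, and the growth-regulatory cartilage protein gene *Mia*, named outside the rule, averaged 1819 in iCreb5 and 5117 in tdTomato (log2 change -1.52, limma adjusted p = 0.00125). The perineurial and nerve sheath list had sums of 4010 to 6377 in iCreb5 and 6312 to 8669 in tdTomato, and of its 6 members only *Ngfr* itself passed (4 were lower with litter as a replicate block, and 3 in DESeq2). The part of cartilage or sheath cells in the fall of the glial genes was not tested.

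The glial genes that did not pass lay on either side of 0. *Pmp22*, a compact myelin protein that many mesenchymal cells also make, was the most abundant member by far, at 11809 ± 1432 in iCreb5 and 14442 ± 1247 in tdTomato (SD, n = 6). Its log2 change was -0.30 (95% interval -0.51 to -0.08, limma adjusted p = 0.113), and only the iCreb5 library of litter 5 (13106) reached above the lowest tdTomato library (13086).

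*Gfra3*, the receptor for artemin and a gene of Schwann cell precursors, averaged 160.5 ± 31.4 and 240.2 ± 44.0 (SD, n = 6), with a log2 change of -0.58 (-0.97 to -0.19, limma adjusted p = 0.074). It passed in DESeq2 (adjusted p = 0.0161) and without the tdTomato library 3c (limma adjusted p = 0.0307). *Fabp7*, the brain fatty acid binding protein of early glia, averaged 26.3 ± 12.6 and 47.8 ± 14.8, with a log2 change of -0.91 (-1.63 to -0.19, limma adjusted p = 0.143). For both genes the groups overlapped.

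The other 5 tested glial genes had intervals that include 0. *Mbp*, the major cytoplasmic myelin protein, averaged 71.2 ± 30.4 in iCreb5 and 84.1 ± 19.3 in tdTomato (SD, n = 6; log2 change -0.33, 95% interval -0.97 to 0.32). *Cdh19*, a cadherin of Schwann cell precursors, averaged 32.1 ± 9.39 and 35.4 ± 11.3 (-0.14, -0.76 to 0.48). *Egr2* averaged 388 ± 177 and 349 ± 131 (0.13, -0.46 to 0.72). These are wide intervals, and they do not show that the genes were alike in the groups. *Ptprz1*, a receptor tyrosine phosphatase of glia, averaged 276 ± 110.3 and 269 ± 127 (0.14, -0.68 to 0.96). *Gfap*, the glial filament protein, averaged 29.1 ± 5.48 and 24.1 ± 12.9 (0.42, -0.36 to 1.20).

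*Sox2*, *Mal* and *Gjc3* were not tested. *Sox2*, a factor of immature Schwann cells, had 50 reads in all libraries together, and *Mal*, a myelin proteolipid, had 53. *Gjc3*, the connexin of myelinating Schwann cells, had 86 reads, was at 0 in 3 of 6 iCreb5 libraries and read up to 6.46 in the others. Its tdTomato values ran from 0.929 to 22.3 with none at 0. Without a filter its log2 change was -2.06 and did not pass (limma adjusted p = 0.232).

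Levels per kilobase of exon gave the members' order in tdTomato. *Pmp22* stood first at 6135 normalised reads per kb, followed by *Cmtm5* at 498, *S100b* at 419.6, *Ngfr* at 293, *Gfra3* at 120.3 and *Egr2* at 103. *Sox10* at 55.4 and *Ednrb* at 50.3 were neighbours in tdTomato, whereas in iCreb5 they stood at 16.3 and 98.0. *Mlana* was last at 0.293. *Cmtm5* and *S100b* were thus each several times more abundant per kb than *Sox10*, and *Mbp* stood at 9.93.

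A list of 20 other Schwann cell genes places the glial members. Of these, 15 were tested, 3 fell and none rose in limma (2.85% and 3.87% of all genes), and the median log2 change was -0.24. At an unadjusted p under 0.05 in limma, 1 was higher and 4 lower (9.93% and 8.27% of all genes). EdgeR and DESeq2 each called 0 higher and 3 lower. The 3 that fell were *Ncmap*, *Art3* and *Sox8*. *Ncmap*, a noncompact myelin protein, averaged 343 ± 116 in iCreb5 and 1165 ± 208 in tdTomato (SD, n = 6; log2 change -1.82, limma adjusted p = 3.95e-05). *Sox8*, a close relative of *Sox10*, averaged 209 ± 49.7 and 472 ± 128 (-1.17, limma adjusted p = 0.00298), a call lost in litters 4 to 6 alone (-0.74, limma adjusted p = 0.104). *Art3*, an ADP-ribosyltransferase family member, averaged 77.8 ± 39.7 and 186 ± 44.1 (-1.39, limma adjusted p = 0.0129), a call lost without the tdTomato libraries 3a and 5b (limma adjusted p = 0.0742) and in litter 3 alone or litters 4 to 6 alone (0.056 and 0.0746).

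By mean value, the most abundant genes of that list that did not pass were *Cnp*, a myelin enzyme (571 ± 17.5 and 516 ± 101, limma adjusted p = 0.572), and *Adgrg6*, a receptor needed for myelination (468 ± 199 and 329 ± 115, limma adjusted p = 0.443). *Erbb3*, the neuregulin receptor of the Schwann lineage, named outside the rule for its standing as a marker, averaged 49.2 ± 29.9 and 51.9 ± 23.8 (log2 change -0.30, 95% interval -1.40 to 0.80, limma adjusted p = 0.827) and did not pass. The litter sets moved in opposite directions, by 0.94 in litter 3 alone (limma adjusted p = 0.236) and -1.54 in litters 4 to 6 (limma adjusted p = 0.131). Tested as an interaction, this difference did not pass (limma unadjusted p = 0.00232, adjusted p = 0.501). Thus *Sox10* fell where *Erbb3*, *Cdh19* and *Mbp* did not pass.

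**Figure D3:**
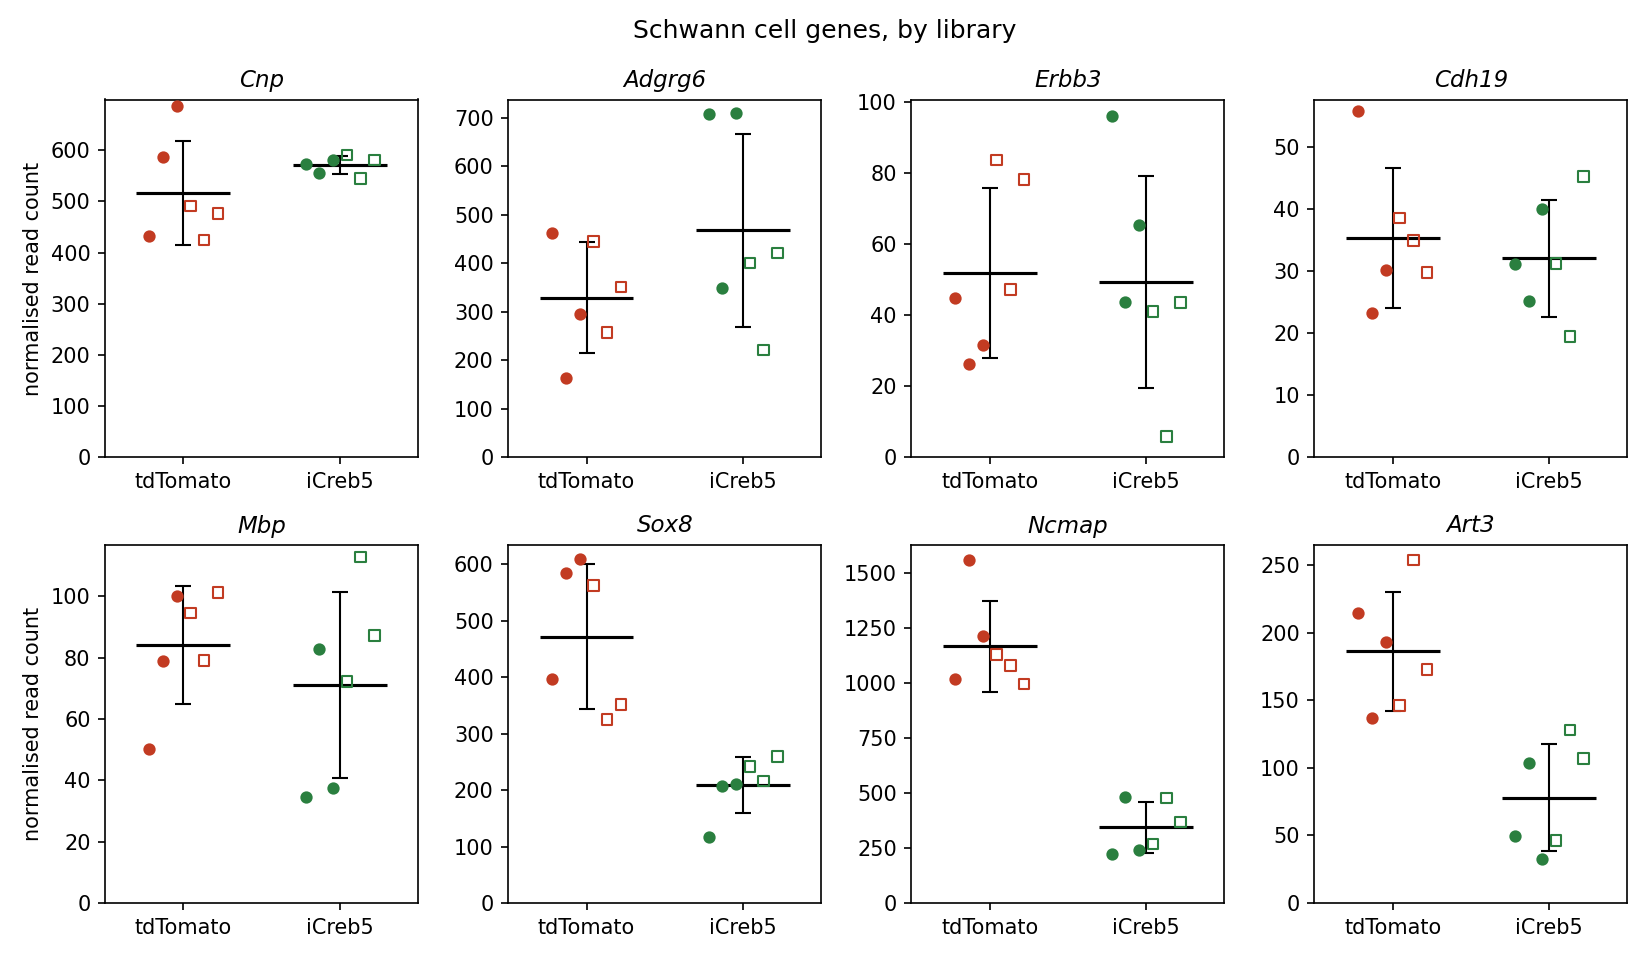
Normalised read counts of 8 Schwann cell genes in each library (filled circles litter 3, open squares litters 4 to 6), with the mean and SD of 6 libraries per group. The groups are apart for *Sox8*, *Ncmap* and *Art3* and overlap for *Cnp*, *Adgrg6*, *Erbb3*, *Cdh19* and *Mbp*.

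None of the pigment genes passed. Of the 9, 5 were tested, with a median log2 change of -0.02. In limma 1 was higher at an unadjusted p under 0.05, edgeR called 0 and DESeq2 called 1, in each case *Kit*. The other 4 members had too few reads.

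*Kit* encodes the receptor for Kit ligand, on which melanoblast survival and migration depend, and mast cells express it strongly as well. It read 472, 378, 479.6, 344, 261 and 323 in iCreb5 (litters 3, 3, 3, 4, 5 and 6) and 290.4, 171, 279.6, 229.7, 208 and 309 in tdTomato. The iCreb5 mean was higher in every litter, and the groups overlapped through the iCreb5 library of litter 5. Means were 376 ± 86.0 and 248 ± 53.7 (SD, n = 6), a log2 change of 0.60 ± 0.19 (SE, limma adjusted p = 0.0771). *Kit* passed in DESeq2 (adjusted p = 0.0241), without the iCreb5 library of litter 5 (limma adjusted p = 0.0322) and without the iCreb5 libraries of litters 5 and 6 (limma adjusted p = 0.0301).

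*Mitf*, the master regulator of the pigment lineage, averaged 43.5 ± 19.8 in iCreb5 and 45.7 ± 23.8 in tdTomato (SD, n = 6; log2 change -0.02, 95% interval -0.86 to 0.82, limma adjusted p = 0.986). Its highest values were in litters 5 and 6 of both groups, at 60.2 and 72.4 in iCreb5 and 70.0 and 72.5 in tdTomato. Mast cells express *Mitf* and *Kit*, and the mast cell list stood highest in the same 4 libraries, with sums of 2189 to 4376 there and 564 to 1411 in the other 8. Its 3 tested markers did not pass in limma (2 were higher at an unadjusted p under 0.05, edgeR and DESeq2 called 0, and 3 rose with litter as a replicate block). *Fcer1a* had 3 reads in all and was not tested. It was at 0 in every iCreb5 library and in 5 of 6 tdTomato libraries. In litters 5 and 6, *Kit* read 261 and 323 in iCreb5, its lowest values in that group. In tdTomato it read 208 and 309, of which 309 was its highest value in that group. The part of mast cells in the levels of *Mitf* and *Kit* was not tested.

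Of the tested melanosome genes, *Dct* and *Pmel* lay below 0 and *Slc24a5* above it, and none passed. *Dct*, the dopachrome-converting enzyme and an early marker of melanoblasts, averaged 44.3 ± 20.9 and 56.8 ± 36.8 (SD, n = 6; log2 change -0.27, limma adjusted p = 0.772). Its highest value was 126, in the tdTomato library of litter 5. *Pmel*, the fibril protein of the melanosome, averaged 46.8 ± 13.5 and 62.0 ± 17.5 (-0.40, limma adjusted p = 0.468). *Slc24a5*, an ion exchanger of the pigment cell, averaged 129.7 ± 63.7 and 98.3 ± 43.2 (0.34, limma adjusted p = 0.706). Its sign differed between litter 3 alone (-0.39) and litters 4 to 6 (1.06), and neither passed. Of the exon bases of *Slc24a5*, 39.5% are shared with *Myef2* on the opposite strand, so its counts may include reads of that gene.

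*Tyr*, the rate-limiting enzyme of melanin synthesis, had 74 reads in all. It was at 0 in 3 iCreb5 libraries and read 3.23 to 3.54 in the others, and it read 2.74 to 30.7 in tdTomato, highest in litters 5 and 6. Without a filter its log2 change was -1.98 and did not pass (limma adjusted p = 0.143). *Tyrp1*, which stabilises *Tyr* protein and acts downstream of it, had 33 reads and was at 0 in all 6 libraries of litters 4 to 6.

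*Slc45a2*, a melanosome transporter, had 44 reads, 25 of them in the tdTomato library of litter 5, where its value was 38.0. That library also held the highest *Dct* value and the next highest *Tyr* value (13.7). Without a filter its log2 change was -1.72 and did not pass (limma adjusted p = 0.303). *Mlana*, a melanosome protein of differentiated melanocytes, had 4 reads over all 12 libraries and more than 3 reads in none.

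**Figure D4:**
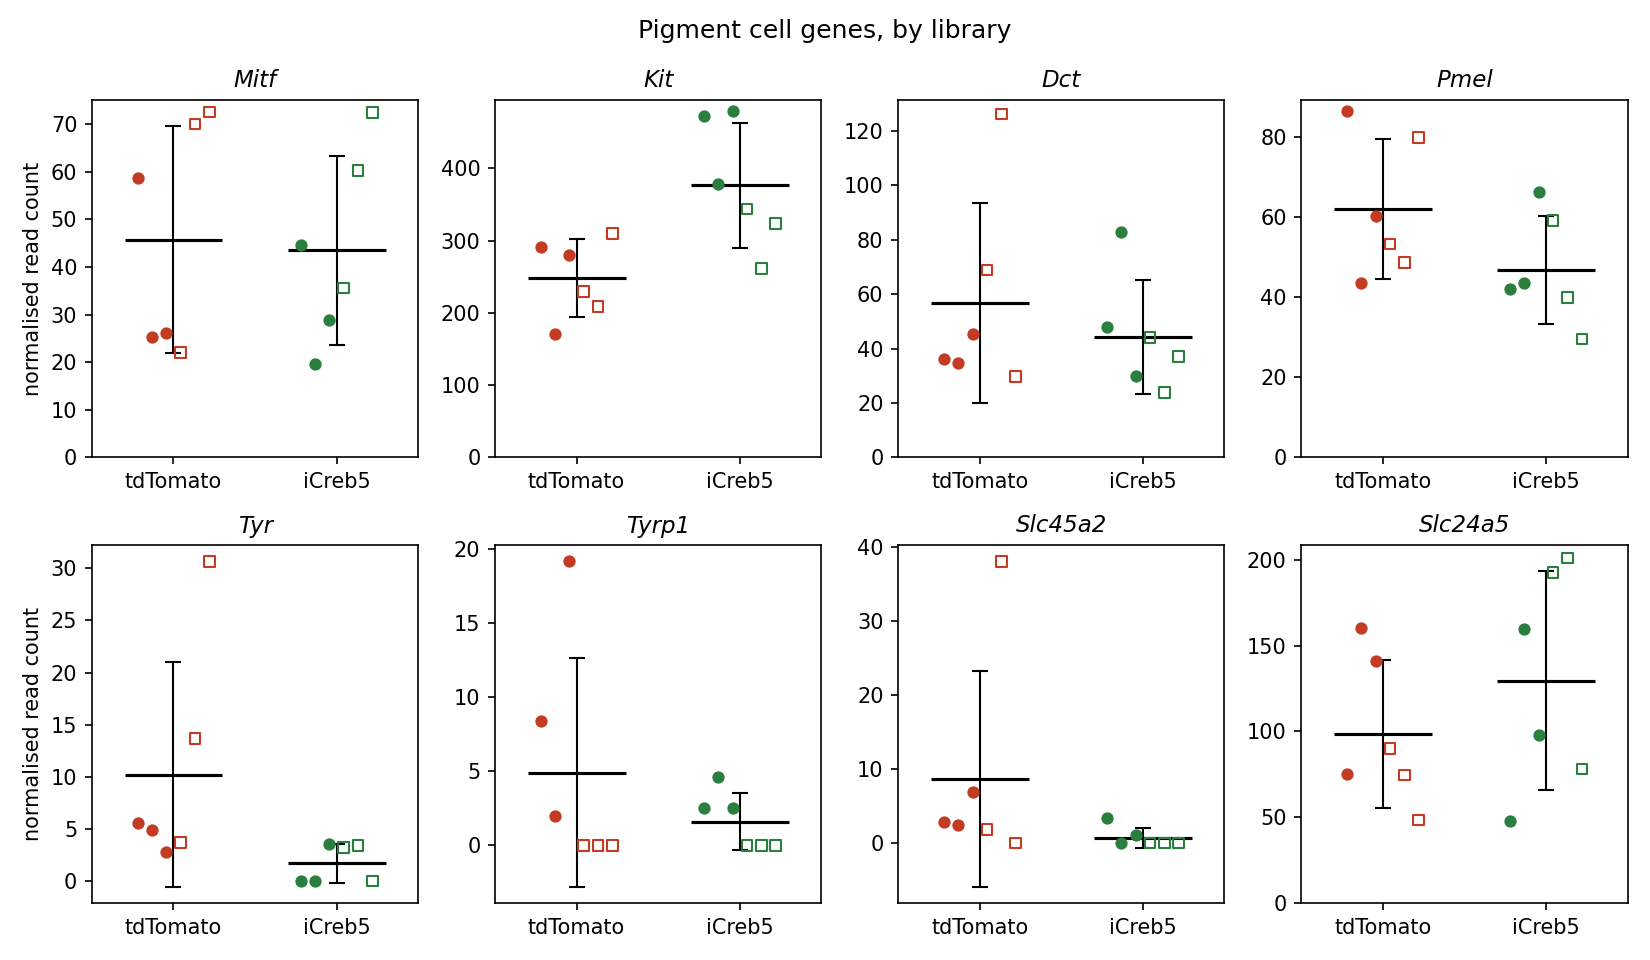
Normalised read counts of 8 pigment genes in each library (filled circles litter 3, open squares litters 4 to 6), with the mean and SD of 6 libraries per group. The groups overlap in every panel, *Kit* lies higher in iCreb5 without passing the test, and *Slc45a2* has 1 high tdTomato library at 38.0.

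Among 12 other pigment cell genes, 5 were tested and none passed (0 at an unadjusted p under 0.05, and 0 in edgeR and DESeq2). The most abundant by mean value were *Cited1*, a transcriptional co-regulator (481 ± 177 in iCreb5 and 558 ± 120.5 in tdTomato, limma adjusted p = 0.574), and *Rab27a*, which tethers melanosomes for transport (236 ± 41.0 and 271 ± 15.1, limma adjusted p = 0.489). *Gpr143*, a melanosome receptor, had 10 reads in all 12 libraries together and was not tested. It was at 0 in every tdTomato library and in 3 of 6 iCreb5 libraries.

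The mesenchyme supplies ligands for the receptors among the members, and 16 ligands and processing enzymes were all tested. *Hgf*, hepatocyte growth factor, rose, and it was the only one that passed in limma over all 12 libraries (3.87% of all genes rose and 2.85% fell). On the recovered reads, edgeR called 1 higher and 0 lower, and DESeq2 1 and 1 (*Adamts20*, lower, adjusted p = 0.0279). *Adamts20* was also lower in litters 4 to 6 alone (log2 change -1.25, limma adjusted p = 0.0353). *Hgf* averaged 490.3 ± 64.2 in iCreb5 and 256 ± 22 in tdTomato (SD, n = 6, log2 change 0.93, limma adjusted p = 0.000297), 1.91-fold higher. *Kitl*, the ligand of *Kit*, averaged 1672 ± 118 and 2157 ± 431 and did not pass (log2 change -0.34, limma adjusted p = 0.155), except without the tdTomato library 3c (-0.44, limma adjusted p = 0.0379). The growth factor gene *Igf1* did not pass either (9658 ± 1582 and 10501 ± 1309.5, limma adjusted p = 0.655). *Edn3*, the ligand of *Ednrb*, named outside the rule, averaged 899 ± 119 and 1053 ± 125 and did not pass either (-0.23, 95% interval -0.49 to 0.03, limma adjusted p = 0.341). 

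Of 12 partner receptors, all tested, *Gfra1* and *Met* rose and none fell in limma (3.87% and 2.85% of all genes). At an unadjusted p under 0.05, 4 were higher and 0 lower in limma (9.93% and 8.27% of all genes). EdgeR called 2 higher and 0 lower, and DESeq2 called 3 and 0. *Gfra1*, a relative of *Gfra3* that binds GDNF, averaged 4033 ± 1769.7 and 1320.5 ± 308 (SD, n = 6; log2 change 1.52, limma adjusted p = 0.0017), or 2.87-fold higher. *Met*, the receptor for Hgf, averaged 297 ± 119 and 118 ± 31.6 (1.28, limma adjusted p = 0.0067), or 2.42-fold higher, a call lost in litters 4 to 6 alone (limma adjusted p = 0.0853). *Ednra*, the other endothelin receptor, averaged 2441 ± 306 and 2547 ± 478 and did not pass (-0.05, 95% interval -0.34 to 0.24, limma adjusted p = 0.9). *Lrp1*, an endocytic receptor, averaged 3517 ± 728 and 3566 ± 708 (limma adjusted p = 0.962).

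Litter 3 and litters 4 to 6 were also compared. In litter 3 alone 4 members fell and none rose, against 1.75% and 2.36% of all genes. In litters 4 to 6 alone 4 fell and none rose, against 2.2% and 1.91%, all in limma. The 4 were *Sox10*, *S100b*, *Ngfr* and *Cmtm5* in both sets. Among the 20 tested members, 15 had the same sign in both. The difference between the sets, tested as an interaction, passed for 0 members and for 0% of all genes in limma. Without adjustment 1 member, *Slc24a5*, fell under 0.05 (limma adjusted p = 0.533), against 8.96% of all genes.

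**Figure D5:**
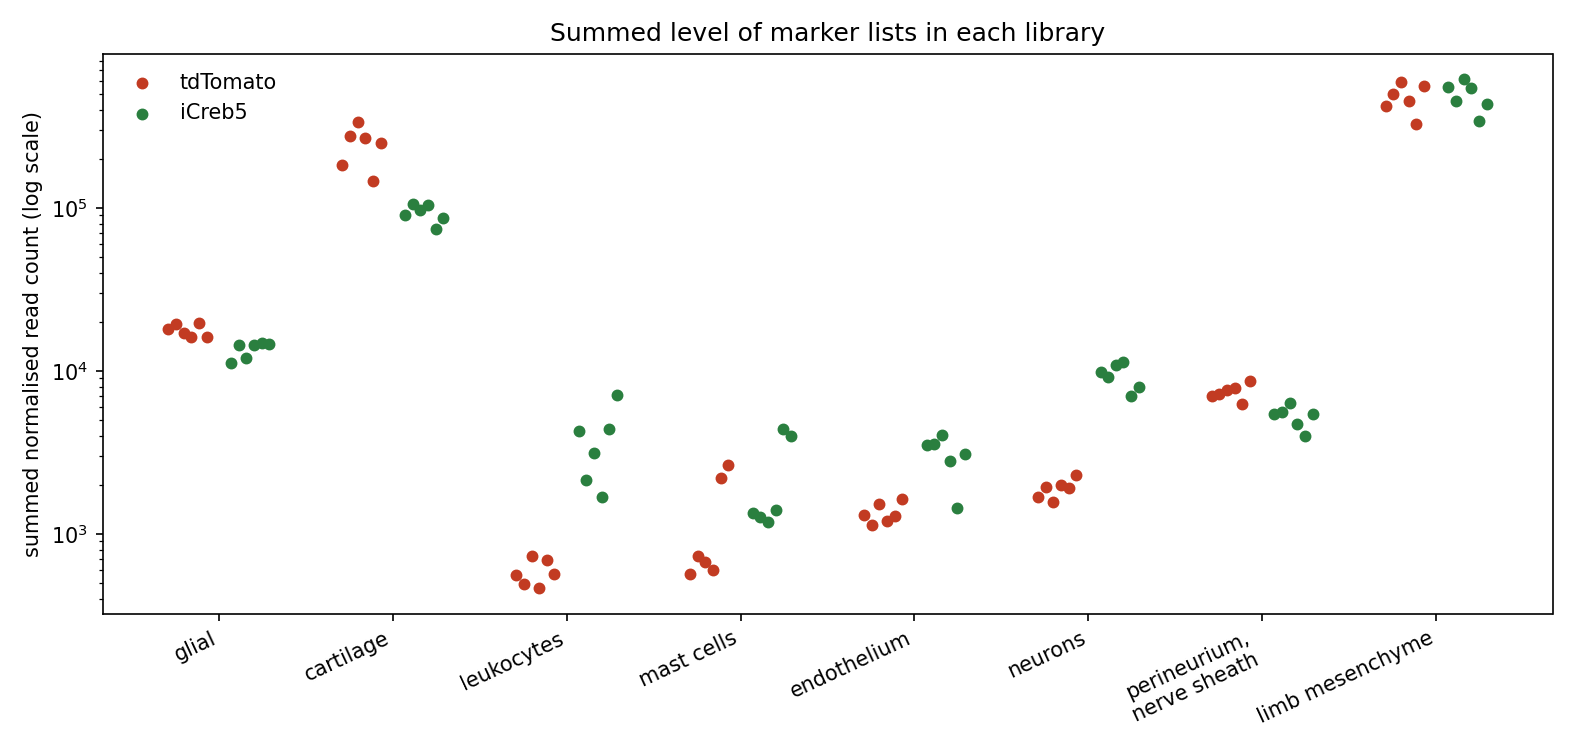
Summed normalised read count (log scale) of the glial members and of 7 marker lists in each library, tdTomato in red and iCreb5 in green. Most of the glial sum is *Pmp22*, which did not pass the test. It made up 9589 of 11256 in the iCreb5 library 3a and 14825 of 17997 in the tdTomato library 3a. Cartilage sums are 146477 to 338913 in tdTomato and 73999 to 105035 in iCreb5, leukocyte and neuronal sums are higher in iCreb5, and limb mesenchyme sums overlap. Most of the neuronal sum is *Nefl* and *Nefm*.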

How the data were processed

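RNA from sorted limb cells was sequenced in 12 libraries. The submitters' processing notes list FastQC, STAR, Salmon, DESeq2 and the build mm10, with neither version nor role. The annotation, the use of strand and the treatment of bovine transgene reads are not given there. The deposited values are a normalised signal per gene, read counts scaled by 1 factor per library, since 100% of them came out as whole multiples of 1 read within 1e-06. From a P0 table, 8 columns were left out because no labelled sample matches them.

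Groups were compared with limma 3.58.1 (lmFit, eBayes with trend, two-sided, no covariate) in R 4.3.3 on log2(value + 1), with Benjamini-Hochberg adjustment over the 16733 genes with 10 or more normalised reads in 6 or more of the 12 libraries. Folds compare geometric means of value + 1. The plan allowed for raw counts, and the test for normalised values was used. Alternatives were edgeR 4.0.16 and DESeq2 1.42.0 on the recovered reads, other pseudocounts, filters and scalings, litter as a block, single litter sets and libraries left out. Under an alternative, a change of sign counted as a reversal only where the gene passed in either fit. Exon lengths and gene positions come from GENCODE M21 (GRCm38), and promoters from RefSeq.

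The labels give the litter, so libraries of a litter are paired. Deviations from the group means correlated between groups at 0.0281 in litter 3, 0.154 in litter 4, 0.346 in litter 5 and 0.000309 in litter 6.

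The members and lists were chosen with earlier results of these data known. Named genes were all 28 members, *Creb5* and *Prrx1*. They also comprised up to 6 genes past the threshold and the 2 most abundant others of each context list, and up to 2 past the threshold of each marker list. Genes outside this rule are named as such. Some genes of the context lists are not reported here.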

Additional observations from a re-analysis of the deposited data

Results flagged for a closer look

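In 5 of 56 groups of 6 libraries, 1 library stood apart from the other 5 by its gap relative to the group's range (Dixon's test at 95%), and chance flags about 1 in 20 groups. All 5 concern members with too few reads to test. *Slc45a2* read 38.0 in the tdTomato library of litter 5, with the next at 6.85, and 3.37 in the iCreb5 library 3a, with the next at 1.01. *Foxd3* read 13.2 in the iCreb5 library of litter 6, with the next at 3.45. *Mal* read 6.79 in the iCreb5 library of litter 5, with the next at 1.64. *Mlana* read 1.86 in the tdTomato library of litter 6 and 0 in the other 5.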

How the results depend on the processing

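Over 27 alternatives, 4 to 5 members were lower in iCreb5 and 3 to 4 glial members passed, and no member or context list gene that passed in either fit changed direction. The number of members higher was 1, but 2 with DESeq2 and without the iCreb5 libraries of litters 5 and 6 (*Kit* beside *Ednrb*), and 0 in litter 3 alone and in litters 4 to 6 with litter as a replicate block. Leaving out each library in turn gave 1 to 2. The number of pigment members passing was 0, but 1 with DESeq2 and without the iCreb5 libraries of litters 5 and 6, and 0 to 1 when each library was left out. Of the shared crest members 2 passed, but 1 in litter 3 alone and 1 in litters 4 to 6. With litter as a replicate block over all libraries, no member's call changed, and over all genes 859 were higher and 728 lower against 648 and 477. Rescaling to equal totals moved the median of all genes to 0.07 on the log2 scale and gave 799 higher and 382 lower. Depth limits *Sox2*, *Mal*, *Gjc3*, *Tyr*, *Tyrp1*, *Mlana*, *Slc45a2* and *Foxd3*, none of which passed without a filter.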
